A study of Mus musculus with 6 samples.

Results

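The genes described here were chosen by symbol and not by a rule on measured values, but earlier results of these data were known. They are 40 genes of the cell cycle and of DNA replication, out of 19057 genes that the array's annotation names. They fall into 14 genes of S phase and of the switch from G1 into it (*Mcm2*, *Mcm3*, *Mcm4*, *Mcm5*, *Mcm6*, *Mcm7*, *Pcna*, *Rrm1*, *Rrm2*, *Tyms*, *Tk1*, *Ccne1*, *Ccne2* and *E2f1*), 23 genes of G2 and mitosis, and the 3 D cyclins. Expression was measured in whole mouse kidneys at E15.5 with Illumina MouseWG-6 v2.0 BeadChips, 6 arrays in all. The 3 mutant arrays came from FoxD1;Dicer kidneys, in which a Cre recombinase placed in the *Foxd1* locus deletes a floxed part of both copies of *Dicer1*, the gene for the enzyme that cuts precursor miRNAs to their mature form. The 3 control arrays came from Cre-negative littermates, whose *Dicer1* alleles the labels do not give. Both genotypes of each of 3 litters were measured, with RNA of 2 embryos pooled on every array. *Foxd1* drives Cre in the renal stroma, so that its descendants carry the deletion too, while the RNA came from all cells of the kidney, so fewer cells of a type and less RNA per cell cannot be told apart.

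Cells that divide pass through G1, copy their DNA in S phase and separate it in mitosis, and each step has its own transcripts. The MCM proteins form the ring-shaped helicase that opens DNA at replication origins, ribonucleotide reductase and thymidylate synthase supply the building blocks of DNA, and E cyclins and E2F factors drive the entry into S phase. The B cyclins, CDK1, the Aurora and Polo kinases, and proteins of the kinetochore and spindle are made later and act in G2 and mitosis. Cyclin A2 was counted with them here, although its role is not limited to these phases. D cyclins differ from both groups in that growth signals, more than cell cycle phase, set their level. In the embryonic kidney dividing cells are found in nephron progenitors, in ureteric bud tips and in the cortical stroma, and whole-kidney RNA sums over them.

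No member differed between mutant and control kidneys by the threshold of the study in limma's fit with litter as a term. That threshold is a *B*-statistic (log odds of a difference) above 0. The study reported genes past it at E15.5, which the fit here, with its own background correction, normalization and probe filter, did not reproduce. Across all 18639 probes tested the number past that threshold was also 0 (0%), and so was the number with a Benjamini-Hochberg adjusted p under 0.05; 1028 probes (5.52%) had an unadjusted p under 0.05. Among 10474 genes, each read through its brightest tested probe, 561 (5.36%) had an unadjusted p under 0.05, with 2.13% higher and 3.23% lower in the mutant. Among the 34 members tested 1 had such a p, *Cenpk*, which was lower in the mutant. All levels below are log2 values after background correction and quantile normalization, all differences are mutant minus control on that scale, and the median standard error of a difference was 0.22, so the differences of most members were of the size of their errors.

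Of the 40 members, 38 had a probe under their current or an older symbol, and 34 had at least 1 probe detected on 3 or more of the 6 arrays, the condition for a test. *Mki67*, the common proliferation marker, and *Ccnb1*, cyclin B1, could not be found under these names in the platform annotation. *Bub1* (a spindle checkpoint kinase), *Ccnb2* (cyclin B2), *Cenpe* and *Kif20a* (mitotic motor proteins) had probes that were detected on at most 1 array, and therefore have no test. All 14 S phase members and all D cyclins were tested, and 17 of the 23 mitotic members were. The members had 82 probes, of which 64 were tested, and in 9 of the 19 members with several tested probes these probes differed in sign: *Ccnd1*, *Mcm6*, *Rrm2*, *Birc5*, *Bub1b*, *Cdc20*, *Cdca8*, *Cdk1* and *Nusap1*.

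Facts of the arrays that bear on the members are these. Between 17401 and 20063 probes were detected on a mutant array and between 16981 and 20224 on a control array. *Xist*, the X-inactivation RNA of female cells, was at 4.54, 9.39 and 9.64 in mutant litters 1, 2 and 3, against 9.64, 4.57 and 4.61 in the controls, high in only 1 of the genotypes in every litter. Summed background-corrected and normalized signals of 12 stromal markers ranged from 20724 to 22327 on mutant arrays, against 23796 to 24612 on control arrays, without overlap. Such sums weigh bright genes most. In the fit, 3 of these 12 stromal markers were higher and 9 lower in the mutant, with litter medians of -0.40, 0.00 and 0.01. Sums over 8 nephron progenitor markers ranged from 1974 to 2688 in mutants and from 2068 to 2439 in controls. Of 10 genes that mark kidney epithelium and its progenitors 6 were tested, with sums of 5835 to 6095 in mutants and 5759 to 6116 in controls; *Pax2* and *Emx2*, among the defining genes of the developing kidney, were not detected on enough arrays for a test, and *Wt1* could not be found by name among the annotated probes. Erythroid markers summed to 18391 to 19479 in mutants and 18309 to 20984 in controls, and macrophage markers to 1134 to 1718 and 967 to 1463. The part of these differences in the values of the members was not tested. *Dicer1* itself had a difference of -0.33 (standard error 0.21) and *Foxd1* of -0.32 (standard error 0.20).

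Most S phase members had a higher level in mutant than in control kidneys, without passing the test. In the fit, 12 of 14 had a positive difference and 2 (*E2f1* and *Mcm4*) a negative one, with a median of 0.23, beside 43.7% positive, 56.3% negative and a median of -0.04 over all genes. None of the 14 passed B above 0 or an unadjusted p under 0.05. The litters were unlike one another. The median difference was -0.04 in litter 1, 0.19 in litter 2 and 0.50 in litter 3, with 6, 9 and 12 of the 14 genes higher in the mutant. Without litter 3 the median was 0.06 and 9 of 14 were higher, without litter 1 it was 0.34, and without litter 2 it was 0.14. Litters 2 and 3 were also those in which the mutant pool had the higher *Xist*, and with *Xist* as a covariate the median was 0.11, with 11 of 14 genes higher. The part of sex in this difference was not tested beyond that fit.

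**Figure D1:**
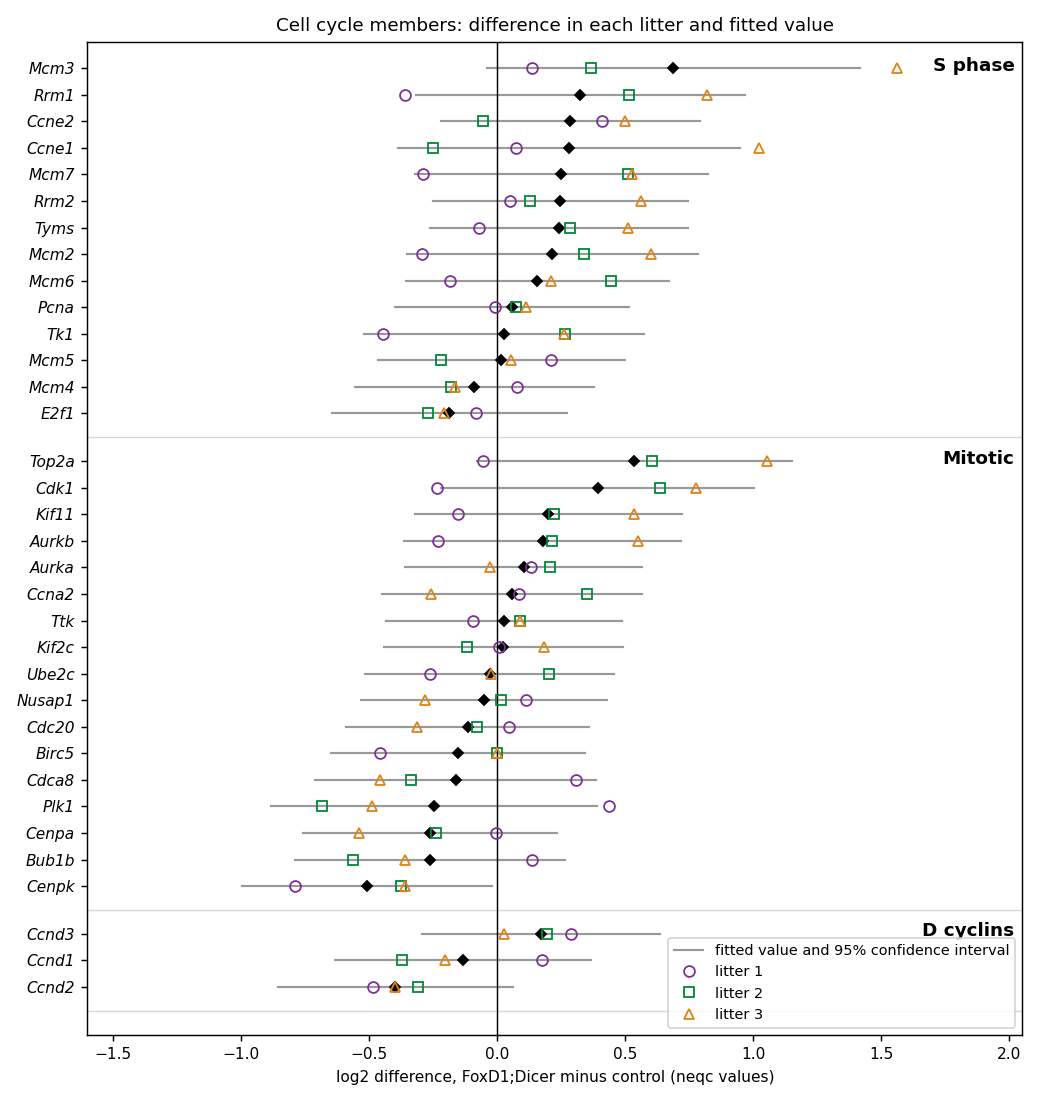
Log2 difference, FoxD1;Dicer minus control, of the brightest probe of each of the 34 tested members; open symbols are the 3 litters, filled diamonds the fitted value, and lines its 95% confidence interval. Most S phase members lie right of 0, with litter 3 farthest right in many of them, whereas mitotic members lie on both sides, and only the interval of *Cenpk* leaves out 0.

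The deposited signals, before any correction, differed in overall brightness. The array of the mutant of litter 3 was the dimmest, with a median signal of 106.3, where the other 5 arrays had 116.2 to 123.7. On log2 of the deposited signals the S phase members had median differences of -0.06, -0.14 and -0.11 in litters 1, 2 and 3, and all genes tested had 0.05, -0.23 and -0.41. In litters 2 and 3 the S phase members thus had a lower deposited signal in the mutant, by less than the median gene, and 3 of 14 had a higher deposited signal in the mutant in each of these litters. With arrays scaled to one median instead of quantile normalization, 9 of 14 had a positive difference and the median was 0.13, beside -0.06 for all genes.

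The MCM helicase gave the largest single value. *Mcm3*, a subunit of the ring, was at 7.06, 7.41 and 8.33 in mutant litters 1, 2 and 3, against 6.93, 7.04 and 6.77 in the controls. All 3 mutant arrays were above all control arrays, as in 5.10% of all genes, and the litter 3 mutant was by far the highest. Its deposited signals were 245.8, 233.8 and 340.1 in mutants and 222.3, 234.6 and 215.9 in controls. Before correction and normalization the litter 2 mutant was thus not above its control. The difference of *Mcm3* was 0.69 (standard error 0.31, adjusted p = 0.86 in limma), 0.25 without litter 3 and 0.32 in the authors' series-matrix values. The 5 other subunits had overlapping groups. *Mcm7* differed by 0.25, *Mcm2* by 0.21, *Mcm6* by 0.16, *Mcm5* by 0.02 and *Mcm4* by -0.09. In all, 5 of the 6 subunits were positive, with litter medians of -0.05, 0.35 and 0.37. *Mcm4* had the only negative value, and its second, dimmer probe had -0.62 with mutant values below the control of the same litter in all 3 litters.

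The genes of nucleotide supply were all positive in the fit, by amounts that depended on the litter. *Rrm1*, the large subunit of ribonucleotide reductase, was at 9.55, 10.11 and 10.43 in mutant litters 1, 2 and 3 and at 9.91, 9.60 and 9.61 in controls, a difference of 0.32 (standard error 0.27), which was 0.08 without litter 3 and 0.67 without litter 1. The mutant was lower in litter 1 and higher in litters 2 and 3, and a second probe had 0.25. *Rrm2*, the small subunit, was at 8.43, 8.80 and 8.85 in mutants and at 8.39, 8.68 and 8.28 in controls, a difference of 0.25 (standard error 0.21), or 0.09 without litter 3. It was higher in the mutant in every litter, as 9.86% of all genes were, but the groups overlapped, and its 2 dimmer probes had 0.20 and -0.47. *Tyms*, thymidylate synthase, had a difference of 0.24, and its other probes had 0.38 and 0.45. *Tk1*, the salvage enzyme thymidine kinase, had 0.03. The litter medians of the 4 genes were -0.21, 0.27 and 0.54.

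The regulators of S phase entry and the clamp did not share one pattern. *Ccne1*, cyclin E1, was at 7.33, 7.52 and 7.79 in mutant kidneys and at 7.26, 7.77 and 6.77 in controls, a difference of 0.28 (standard error 0.28), which became -0.09 without litter 3. *Ccne2*, cyclin E2, was at 7.67, 7.48 and 7.95 in mutants and at 7.26, 7.54 and 7.45 in controls, a difference of 0.29 (standard error 0.21). In both cyclins the groups overlapped and the mutant of litter 2 was below its control. *Pcna*, the sliding clamp that holds DNA polymerase on its template, was at 11.58, 11.54 and 11.31 in mutants and at 11.59, 11.46 and 11.20 in controls. Its difference of 0.06 (standard error 0.19) was the smallest among these genes in relation to its error, and it was -0.05 with scaling to one median. *E2f1*, which turns on many S phase genes, was at 8.94, 8.91 and 8.70 in mutants and at 9.03, 9.18 and 8.91 in controls, a difference of -0.19 (standard error 0.19). It was lower in the mutant in all 3 litters, as 15.4% of all genes were.

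**Figure D2:**
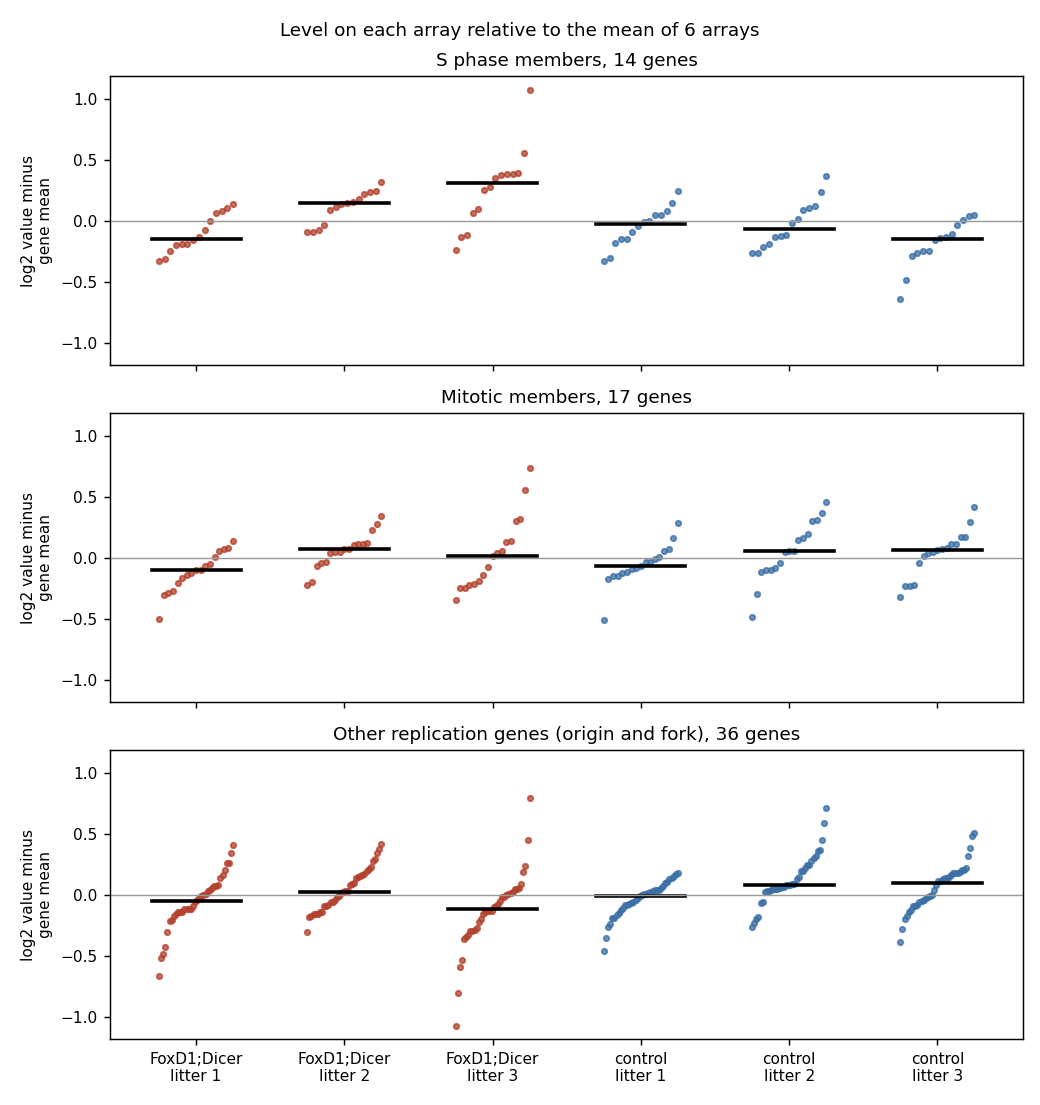
Log2 level of each gene on each array minus that gene's mean over the 6 arrays, mutant arrays first; points are genes and bars are medians. By their medians, the S phase members are highest on the litter 3 mutant array (0.31) and other replication genes are lowest on it (-0.12). The medians of the mitotic members differ little between arrays (-0.10 to 0.07), while single genes spread to both sides.

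One array stood out within the S phase members. The litter 3 mutant array was the highest of the 6 for 9 of the 14 genes (64.3%), while it was the highest for 19.1% and the lowest for 31.5% of all genes tested. Its median level, relative to each gene's mean, was 0.31, and that of the litter 1 mutant was -0.15. Mutant arrays thus spanned a wider range than the 3 controls, whose medians were -0.03, -0.07 and -0.15.

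Other genes of replication did not share the direction of the S phase members. Of 36 tested genes of origin licensing and of the replication fork (subunits of the origin recognition complex, GINS, DNA polymerases, replication factors and ligase, with a few of licensing control and nucleotide supply, from textbook roles), 11 had a positive and 25 a negative difference, with a median of -0.08 and litter medians of -0.01, -0.06 and -0.18. None passed an unadjusted p under 0.05. Over all genes the median was -0.04 and the litter medians were -0.01, -0.02 and -0.11. In all litters 7 of the 36 genes were lower in the mutant, beside 15.4% of all genes. None was higher in all litters, beside 9.86% of all genes. In *Mcm10* (which joins helicase activation to the fork), *Orc5* (a subunit of the origin recognition complex) and *Prim1* (the catalytic subunit of primase) all mutant arrays were below all controls, as in 8.23% of all genes; these genes were chosen after their values were seen. *Prim1* was at 8.42, 8.60 and 8.51 in mutants and at 8.77, 8.72 and 8.83 in controls, a difference of -0.26 (standard error 0.20). *Mcm10* had -0.27 (standard error 0.20) at its brightest probe but 0.71 at a dimmer one. The array of the litter 3 mutant, highest in most S phase members, was the lowest for 17 of these 36 genes (47.2%).

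The mitotic members were evenly divided. Of the 17 tested, 8 had a positive and 9 a negative difference, with a median of -0.03, beside -0.04 for all genes, and litter medians of -0.01, 0.01 and -0.03. With arrays scaled to one median the split was 5 positive and 12 negative, and with the mean of all tested probes of a gene it was 11 positive and 6 negative. None was higher in the mutant in every litter, beside 9.86% of all genes. Of the 17, *Cenpk* and *Cenpa* were lower in every litter, beside 15.4% of all genes.

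Both of these belong to the kinetochore, the protein complex through which chromosomes attach to the spindle. *Cenpk*, a component of the inner kinetochore, was at 8.83, 9.26 and 9.14 in mutant litters 1, 2 and 3, against 9.62, 9.64 and 9.50 in controls. All mutant arrays were below all control arrays, as in 8.23% of all genes. Its difference was -0.51 (standard error 0.21), with an unadjusted p of 0.043 and an adjusted p of 0.86 in limma, and it lay between -0.60 and -0.37 in the alternatives run. *Cenpk* was the only tested member on chromosome 13, which also carries *Foxd1* and with it the Cre allele; the part of that in its value was not tested. *Cenpa*, the centromeric histone H3, was at 12.05, 12.11 and 11.90 in mutants and at 12.06, 12.35 and 12.44 in controls, a difference of -0.26 (standard error 0.21), or -0.12 without litter 3. The groups of its brightest probe overlapped slightly, with litter 1 nearly equal. Its dimmer probe was at 5.92, 5.51 and 5.53 in mutants and at 6.27, 6.43 and 6.10 in controls, without overlap, a difference of -0.61 (unadjusted p = 0.023, adjusted p = 0.86 in limma).

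The largest positive mitotic values belonged to *Top2a* and *Cdk1*. *Top2a*, the topoisomerase that untangles replicated chromosomes, was at 9.04, 9.21 and 9.83 in mutants and at 9.10, 8.61 and 8.77 in controls, a difference of 0.53 (standard error 0.26), which was 0.28 without litter 3 and 0.83 without litter 1. The litter 1 mutant was slightly below its control, litters 2 and 3 were above, and a dimmer probe had 0.00. *Cdk1*, the kinase that starts mitosis, was at 10.37, 11.02 and 11.24 in mutants and at 10.61, 10.38 and 10.46 in controls, a difference of 0.39 (standard error 0.26), which was 0.20 without litter 3 and 0.71 without litter 1. Its dimmer tested probe, detected on 4 arrays, had -0.06. *Ccna2*, cyclin A2, its partner, had 0.06.

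The kinases and checkpoint genes had values on both sides of 0. *Plk1*, Polo-like kinase 1, was at 9.39, 9.24 and 9.39 in mutants and at 8.96, 9.92 and 9.88 in controls, a difference of -0.25 (standard error 0.27), which was -0.03 without litter 2 and -0.59 without litter 1. *Bub1b*, the spindle checkpoint protein BUBR1, was at 10.00, 9.75 and 9.70 in mutants and at 9.86, 10.31 and 10.06 in controls, a difference of -0.26 (standard error 0.22), which was -0.11 without litter 2 and -0.46 without litter 1. At these brightest probes the mutant was above its control in litter 1 and below it in litters 2 and 3, but the second probe of *Bub1b* was below in litter 1 and above in the others, with a difference of 0.02. Among the other kinases *Aurkb* had 0.18, *Aurka* 0.10 and *Ttk* 0.03. *Aurkb* works in the chromosomal passenger complex with *Birc5* (survivin) and *Cdca8* (borealin), which had -0.15 and -0.16. *Cdc20* and *Ube2c*, an activator and the E2 enzyme of the anaphase-promoting complex, had -0.12 and -0.03. *Kif11*, *Kif2c* and *Nusap1*, motor and microtubule proteins of the spindle, had 0.20, 0.02 and -0.05. These are values of the brightest probes. The dimmer tested probes had 0.12, 0.22 and 0.21 in *Cdc20* and 0.33 in *Nusap1*. They had -0.0002 and 0.155 in *Birc5* and 0.02 in *Cdca8*. None of these kinases and spindle genes had an unadjusted p under 0.05.

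Of 36 other tested mitotic genes, from textbook roles, 21 had a positive and 15 a negative difference with a median of 0.03. The split was 16 and 20 with scaling to one median or with *Xist* as a covariate, and 15 and 21 without litter 2. An unadjusted p under 0.05 was found for 2 of the 36, beside 5.36% of all genes. *Bub3*, a checkpoint partner of BUBR1, was at 8.34, 7.70 and 7.88 in mutants and at 7.61, 7.12 and 7.35 in controls, a difference of 0.61 (unadjusted p = 0.017, adjusted p = 0.86 in limma). Each mutant array was above every control, as in 5.10% of all genes. A dim second probe had -0.03, and the series-matrix values gave 0.31. *Cks1b*, a small subunit that binds cyclin-dependent kinases, was at 4.99, 5.21 and 5.31 in mutants and at 5.39, 6.17 and 6.54 in controls, a difference of -0.86 (unadjusted p = 0.0079, adjusted p = 0.86 in limma). Its probe was dim and was detected on 5 of the 6 arrays, and its difference was -0.17 in the series-matrix values and -0.29 without background correction.

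The D cyclins, which activate CDK4 and CDK6 in G1, each had several probes. *Ccnd2* was at 10.87, 11.00 and 10.81 in mutant kidneys, against 11.35, 11.31 and 11.21 in controls. All mutant arrays were below all controls in each litter and across litters, as in 8.23% of all genes. The difference of *Ccnd2* was -0.40 (standard error 0.19, adjusted p = 0.86 in limma). Its other tested probes had -0.25 and -0.54, so that the 3 probes shared a sign, and in the alternatives the value lay between -0.51 and -0.34. *Ccnd3* was at 11.21, 10.98 and 10.97 in mutants and at 10.92, 10.79 and 10.94 in controls, a difference of 0.17 (standard error 0.20). The groups of *Ccnd3* did not overlap, with the mutant above, as in 5.10% of all genes. Its dimmer probes, both higher in the mutant in all litters, had 0.63 (unadjusted p = 0.034) and 0.58 (unadjusted p = 0.025), with adjusted p = 0.86 in limma for each. *Ccnd1* was at 12.65, 12.49 and 12.32 in mutants and at 12.47, 12.86 and 12.53 in controls, a difference of -0.13 (standard error 0.21). Its other probes had 0.03 and 0.54, so that no direction can be given for this gene.

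**Figure D3:**
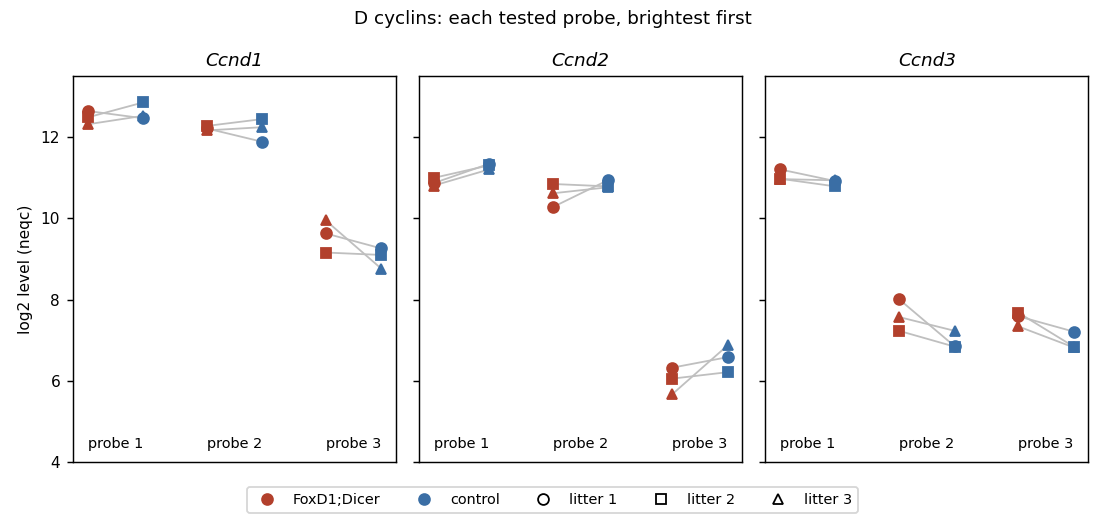
Log2 level of each tested probe of the D cyclins, mutant (left) and control (right) of a litter joined by a line, probes ordered by brightness; a level of one probe cannot be set against that of another. Lines run upward from mutant to control in *Ccnd2* except for litter 2 of its second probe, downward in *Ccnd3*, and both ways in *Ccnd1*.

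The pocket proteins, E2F factors and their partners, which hold S phase genes down or turn them on, gave 6 positive and 7 negative differences among 13 tested genes (median -0.01). The 6 genes whose groups did not overlap were named after their values were seen. *E2f5*, a repressor E2F, was at 10.38, 10.30 and 10.07 in mutants and at 9.71, 9.86 and 9.72 in controls, a difference of 0.49 (unadjusted p = 0.043, adjusted p = 0.86 in limma). *E2f4*, the other main repressor, was at 8.11, 8.05 and 7.86 in mutants and at 7.62, 7.66 and 7.43 in controls, a difference of 0.44 (standard error 0.19). *Rbl1*, the pocket protein p107 that binds them, was at 8.06, 8.07 and 7.90 in mutants and at 7.86, 7.70 and 7.60 in controls, a difference of 0.29 (standard error 0.19), while its dimmer probe had -0.14 with overlapping groups. *Tfdp1*, the DNA-binding partner of E2F factors, was at 9.16, 9.33 and 9.86 in mutants and at 9.06, 9.00 and 8.84 in controls, a difference of 0.48 (standard error 0.24). These 4 genes had every mutant array above every control, 4 of 13 beside 5.10% of all genes.

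In 2 of the 13 genes every mutant array was below every control, beside 8.23% of all genes. *Rbbp4*, a histone-binding protein of the MuvB complex, was at 8.87, 9.02 and 7.97 in mutants and at 9.22, 9.38 and 9.15 in controls, a difference of -0.63 (unadjusted p = 0.036, adjusted p = 0.86 in limma), and its other probes had -0.23 and -0.33. The litter 3 mutant was the lowest array, and the difference was -0.36 without that litter. *Foxm1*, the activator of mitotic genes, was at 7.22, 7.32 and 7.29 in mutants and at 7.44, 7.42 and 7.40 in controls, a difference of -0.14 (standard error 0.19). Of 13 other tested kinases, phosphatases and ubiquitin ligase subunits of the cell cycle, 5 were positive and 8 negative (median -0.04), and of the 4 inhibitors of these kinases tested 1 was positive and 3 were negative. *Cdkn1c*, the inhibitor p57, had every mutant array below every control with a difference of -0.19 (standard error 0.19). None of these kinases and inhibitors had an unadjusted p under 0.05.

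**Figure D4:**
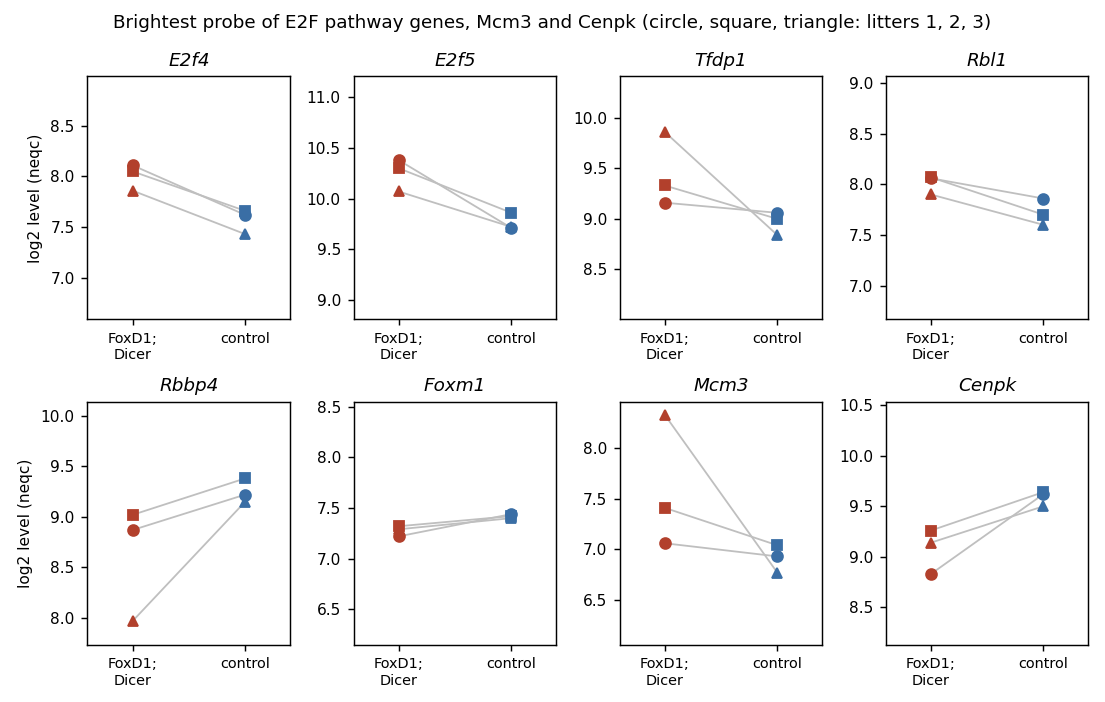
Log2 level of the brightest probe of 8 genes whose groups do not overlap, mutant left and control right, litters joined by lines; each panel spans the same range of log2 units. *E2f4*, *E2f5* and *Rbl1* run down from mutant to control in every litter, *Mcm3* and *Tfdp1* differ most in litter 3, and *Cenpk*, *Rbbp4* and *Foxm1* run up.

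The promoters of the members were searched for motifs known from S phase and mitotic genes. RefSeq promoter sequences (GRCm38.p6, 250 bases before to 50 bases after a start site) were matched for 33 of the 40 members, and both strands were read. An E2F site (TTTCCCGC, TTTGGCGC, TTTCGCGC or TTTGCCGC) was in 4 of 13 S phase promoters (30.8%), in 1 of 22 mitotic promoters (4.55%) and in 2.26% of 32851 promoters. The cell cycle genes homology region (TTTGAA or TTTAAA), known as the element of genes turned on in G2 and mitosis, was in 5 of 13 S phase promoters (38.5%), in 17 of 22 mitotic promoters (77.3%) and in 27.6% of all promoters. The CCAAT box (CCAAT), which binds NF-Y, was in 69.2%, 86.4% and 37.4%. Each motif was searched on its own, so that matches of different motifs can overlap. A match is only a match of letters. The windows below run from 80 bases before to 30 bases after the start, 5′ to 3′ on the strand of the gene, and show the members with an E2F site near the start first and then 3 mitotic members, with the matches in capitals (on either strand).

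The E2F matches are in capitals in *Mcm3* (chr1:20820283-20820392, minus strand), *Mcm6* (chr1:128359676-128359785, minus strand) and *Mcm7* (chr5:138171854-138171963, minus strand), whose differences were 0.69, 0.16 and 0.25. The remaining S phase member with an E2F site, *Mcm5*, has its matches outside this window and had a difference of 0.02.
Mcm3: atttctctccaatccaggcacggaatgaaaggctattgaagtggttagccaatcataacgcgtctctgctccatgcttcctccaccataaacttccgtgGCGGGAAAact
Mcm6: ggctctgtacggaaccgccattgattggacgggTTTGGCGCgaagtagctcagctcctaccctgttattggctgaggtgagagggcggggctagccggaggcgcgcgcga
Mcm7: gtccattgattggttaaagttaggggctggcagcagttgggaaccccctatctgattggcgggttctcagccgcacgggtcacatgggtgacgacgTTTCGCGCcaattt

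The homology region is in capitals in *Cdk1* (chr10:69352883-69352992, minus strand), *Cdc20* (chr4:118437314-118437423, minus strand) and *Cenpa* (chr5:30666806-30666915, plus strand), whose differences were 0.39, -0.12 and -0.26.
Cdk1: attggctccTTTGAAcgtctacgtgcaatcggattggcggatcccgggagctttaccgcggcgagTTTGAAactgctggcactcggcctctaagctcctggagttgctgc
Cdc20: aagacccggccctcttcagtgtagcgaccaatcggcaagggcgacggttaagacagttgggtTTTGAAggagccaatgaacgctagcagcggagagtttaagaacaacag
Cenpa: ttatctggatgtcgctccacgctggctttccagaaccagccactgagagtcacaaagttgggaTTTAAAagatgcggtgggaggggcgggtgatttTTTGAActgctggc

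**Figure D5:**
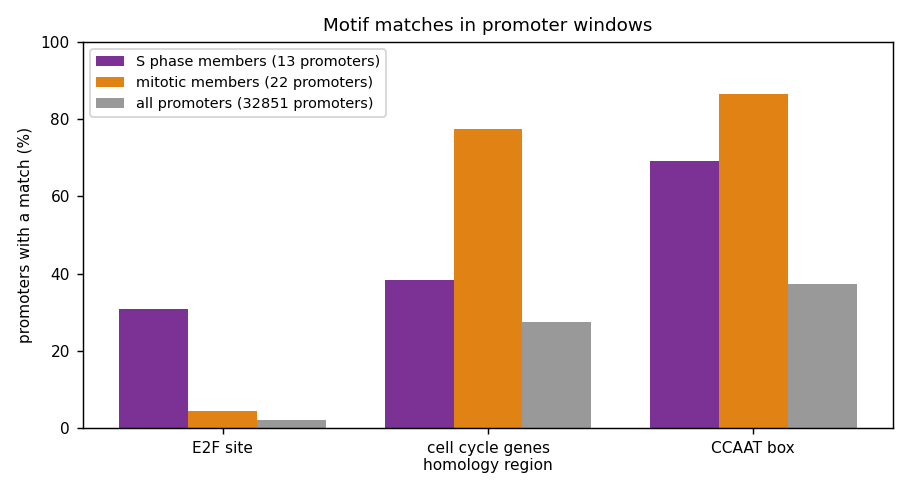
Share of promoter windows with a match to each motif, in percent, for S phase members, mitotic members and all promoters in the table. The bars of the E2F site are highest in the S phase members (30.8%) and those of the homology region in the mitotic members (77.3%).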

How the data were processed

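Genotype and litter of the 6 arrays were taken from their labels. The intensity that the authors deposited is the mean signal of the beads of a probe, neither background-corrected nor normalized. The deposited detection p-value sets it against negative control beads on the same array. The authors also deposited log2 values in a series matrix (array medians 7.23 to 7.24), with an exact transformation not given in the sources used here; the study names lumi and limma, with litter in the model.

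Of 45281 rows, 2 without identifier and 2 repeated were left out. Probes were named through the platform annotation, with symbols updated by gene identifier (34881 with 1 gene, 18 with several, 10378 unnamed here). Background correction was normexp, with the background taken from detection p-values (offset 16); values were then quantile normalized and log2 transformed (neqc). Probes with a detection p under 0.05 on at least 3 arrays were tested with limma's lmFit and eBayes on litter and genotype, with a prior share of 0.01. A gene was read through its brightest tested probe. Litter is a block because the labels say that a number marks a shared litter; deviations from the genotype means correlated at -0.29, -0.02 and -0.12 within litters 1, 2 and 3. The pools are separate embryos, and precision is limited by 3 arrays per genotype. The analysis was tested on simulated data.

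The members and lists were chosen with earlier results of these data known. Values per array are given for the D cyclins, *Top2a*, *Pcna*, *E2f1* and the E cyclins, for members with an unadjusted p under 0.05, for the 4 S phase and 6 mitotic members with the largest difference (those of one direction in all litters first), and for up to 3 other genes a list with an unadjusted p under 0.05. Outside this rule, *Prim1*, *E2f4*, *Rbl1*, *Tfdp1* and *Foxm1* were added after their values were seen, because their groups did not overlap. Adrenal markers were counted too: only *Mc2r* of 9 was tested, with signals of 54 to 75 in mutants and 27 to 43 in controls. Promoters were searched in RefSeq sequences. Fits used limma 3.58.1 in R 4.3.3 with data.table version 1.17.8, and figures matplotlib 3.10.9 with pandas 2.3.3 in Python 3.11.15.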

Additional observations from a re-analysis of the deposited data

How the results depend on the processing

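The number of arrays limits these results: with 3 per genotype and a median standard error of 0.22, differences of single members were near their errors. The count of probes with *B* above 0, 0 in each direction, was 10 higher and 24 lower in the mutant with no replicate block (34 in all, 4 with an adjusted p under 0.05), 2 and 8 with litter as a random block, 0 and 1 without background correction, 6 and 14 with scaling to one median, 4 and 14 with an intensity trend, 120 and 129 with array weights and 5 and 5 with *Xist* as a covariate. Leaving out one litter gave 0 to 20 higher and 0 to 21 lower. The S phase median stayed above 0 in 14 of 14 alternatives (0.06 to 0.34, the lowest without litter 3). It was unchanged with no block, a random block, no probe filter, the strict filter and an intensity trend. These reused the same probes and values for the S phase members, so they could not move it. The mitotic median was -0.11 with scaling to one median, -0.0003 without a probe filter, 0.0242 with the mean of all tested probes and -0.0748 to 0.0329 with a litter left out. The D cyclin median was 0.15 with the mean of all probes. With scaling to one median the origin and fork list had -0.18 and the list of kinases and phosphatases -0.16. *Ccnd1* reversed to 0.15 and *Rrm2* to -0.0075 with the mean of all probes, *Pcna* to -0.0508 with scaling, and *Ccne1* to -0.0094 with array weights and from -0.089 to 0.5473 with a litter left out, the lowest without litter 3; the cause was not tested. *Cks1b* passed the threshold with array weights (-0.96), was -0.17 in the series-matrix values and -0.29 without background correction, and was not tested under the strict filter. The other 273 single-gene values kept their direction and side of the threshold. The other 113 list medians and counts moved by less than the spread between litters or under 1.5 times, but some medians near 0 changed sign. Other mitotic genes had -0.02 with scaling, -0.01 with *Xist* and -0.04 without litter 2. The kinase inhibitors had 0.08 with array weights. The kinases and phosphatases had 0.02 with the mean of all probes and 0.03 without litter 3. The E2F and pocket protein list had 0.01 with *Xist* and 0.06 without litter 2 or 3.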
